A study of Mus musculus with 6 samples.

Results

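The genes described here encode proteins of the mitochondrial ribosome, chosen by symbol as those starting with Mrpl (large subunit) or Mrps (small subunit) followed by a number. They were 76 of the 12619 genes tested, 47 of the large subunit and 29 of the small subunit. RNA came from MIN6, an established mouse insulinoma line used as a model of beta cells, and each of 6 Affymetrix arrays read 1 sample. For 3 arrays the cells had been electroporated with siRNA directed at TDP-43, whose gene is Tardbp and whose protein binds RNA and regulates splicing. For the other 3 they had been electroporated with a control siRNA. The labels do not tell whether replicates were grown separately, so the p-values may measure technical spread.

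The mitochondrial ribosome makes the few proteins encoded in mitochondrial DNA, all of them core parts of the respiratory chain and ATP synthase. Its RNAs come from mitochondrial DNA, whereas every one of its proteins is encoded in the nucleus, made in the cytosol and imported. Many of these proteins have a counterpart in the bacterial ribosome and others are found only in mitochondria. In beta cells, ATP from the respiratory chain links glucose breakdown to insulin release.

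Each array gave 1 signal for every probe set (a group of short probes that reads part of a transcript), and each array had been scaled to the same trimmed mean, 500.003 by these files. Tardbp read 2257, 2249 and 1836 on the TDP-43 siRNA arrays, against 3748, 3940 and 3699 on the control siRNA arrays, a log2 difference of -0.85 (SE 0.08, n = 3 per group, limma adjusted p = 0.00187), which passed under 15 of 16 alternative settings (0.0608 without the intensity trend). On the 4 other probe sets of Tardbp the groups did not overlap either, at differences of -0.86, -1.24, -1.27 and -1.41, so the brightest gave the smallest fall. Of 7 beta cell markers 5 were measured, with Iapp at 21751 on average in TDP-43 siRNA and 21716 in control siRNA arrays, and 0 passed the test. Of 12 markers of other islet, acinar, duct, fibroblast, endothelial and immune cells 4 were measured (Gcg, Sst, Cela1 and Col1a2) and 0 passed. Gcg was bright, at 8165 on average in TDP-43 siRNA and 9264 in control siRNA arrays. Sst (62.4 and 25.1), Cela1 (73.6 and 63.7) and Col1a2 (56.2 and 93.9) were dim, near the filter on low signals at 41.5. Differences were -0.17 for Gcg, 1.03 for Sst, 0.15 for Cela1 and -0.63 for Col1a2. The other 8 markers were below that filter, and the part of these cell types in the results was not tested.

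Genes for the mitochondrial ribosome moved little after TDP-43 siRNA. Of the 76 members, 1 fell, 0 rose and 75 did not pass (limma, Benjamini-Hochberg over all 12619 genes, threshold 0.05). The same rule called 0.745% of all genes tested, 0.578% as lower and 0.166% as higher, so 1 of 76 is close to that background. The member that fell was Mrps9. The median log2 difference, TDP-43 siRNA minus control siRNA, was -0.031 over the members and 0.017 over all genes tested. In size, 58 members (76.3%) differed by less than 0.1 on the log2 scale, against 48.5% of all genes tested. The members were also brighter, with a median signal of 1704 against 599 over all genes tested, and their median standard error was 0.075 against 0.104. Whether brightness had a part in the smaller differences was not tested.

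The precision bounds what could have gone unseen. For 73 of 76 members the 95% confidence interval of the difference lay within 0.5 of 0 on both sides, and for 60 it lay within 0.3. The exceptions to the wider bound were Mrps9, Mrpl33 and Mrpl49. Among all genes tested, 70.3% met the wider bound and 36.7% the narrower one.

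**Figure D1:**
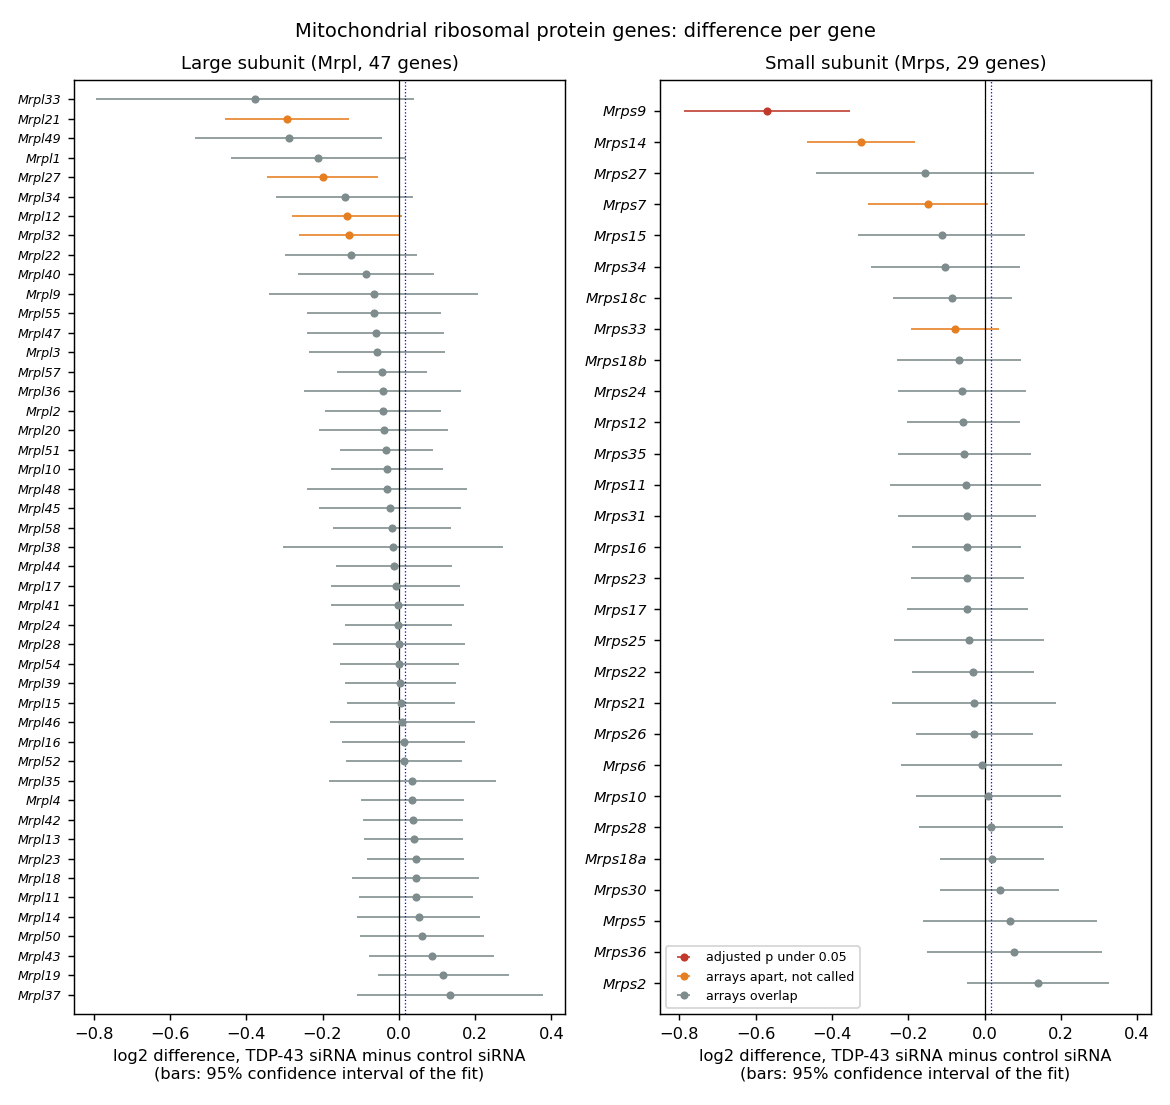
Log2 difference (TDP-43 siRNA minus control siRNA, x axis) of each of the 47 large subunit and 29 small subunit genes (y axis), with bars for the 95% confidence interval of the fit; the dotted line marks the median of all genes tested, 0.017. Most points lie within 0.1 of 0, Mrps9 at -0.57 is the single call, and the 7 orange genes had groups that did not overlap without passing the test.

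Separated arrays were seen in 1 direction. In 8 members all 3 TDP-43 siRNA arrays lay below all 3 control siRNA arrays, which is 10.5% of the members, against 8.32% of all genes tested. In 0 members did they lie above, against 9.98% of all genes tested. At an unadjusted p under 0.05 there were 5 members lower and 0 higher, against 5.87% of all genes lower and 6.75% higher (12.6% in either direction). The 8 separated members were Mrps9, Mrps14, Mrps7 and Mrps33 of the small subunit and Mrpl21, Mrpl27, Mrpl12 and Mrpl32 of the large subunit.

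Mrps9 encodes the counterpart of bacterial protein S9, which sits in the head of the small subunit and whose tail reaches the transfer RNA in bacteria. Its brightest probe set, 1448921_a_at, read 511, 543 and 451 on the TDP-43 siRNA arrays, against 808, 701 and 741 on the control siRNA arrays. The groups were well apart, with the highest TDP-43 siRNA array below the lowest control siRNA array. Mrps9 fell by 0.57 on the log2 scale (SE 0.10, n = 3 per group, limma adjusted p = 0.0308). The 95% confidence interval was -0.79 to -0.35, and 67.3% of the control signal was left.

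Other probe sets of Mrps9 were read on the same arrays. Probe set 1435843_x_at, whose x marks probes that can also read other transcripts, gave 237, 241 and 213 after TDP-43 siRNA against 349, 367 and 315 after control siRNA, a difference of -0.55. Probe set 1418034_at gave 240, 232 and 193 against 300, 248 and 319, a difference of -0.36. On both, as on the brightest, the groups did not overlap. The dimmest, 1439210_at, gave 75.5, 43.2 and 55.9 against 46.8, 35.1 and 80.8, with overlapping groups and a difference of 0.12. The call was not stable: Mrps9 passed under 7 of 16 alternative settings, its adjusted p ranged from 0.0250 to 0.262, and of 6 fits on 5 arrays it passed only in that without control siRNA replicate 3. Its difference stayed negative in all 16, between -0.63 and -0.34.

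Mrps14, the counterpart of bacterial S14 and also part of the small subunit head, came next. It read 4499, 4229 and 4034 on the TDP-43 siRNA arrays, against 5516, 5451 and 5023 on the control siRNA arrays. All TDP-43 siRNA arrays were lower, and 79.8% of the control signal was left. The difference of -0.32 (SE 0.06, 95% confidence interval -0.47 to -0.18) just missed the threshold (limma adjusted p = 0.0541). The second probe set, 1420488_at, gave 644, 610 and 567 against 681, 725 and 669, and the third, 1443262_at, gave 57.6, 77.6 and 44.4 against 82.8, 80.2 and 78.9. On all 3 probe sets of Mrps14 the groups did not overlap, at differences of -0.32, -0.19 and -0.39. Mrps14 passed under 4 of 16 alternative settings, with an adjusted p between 0.0238 and 0.238, and among those was the fit without control siRNA replicate 3.

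**Figure D2:**
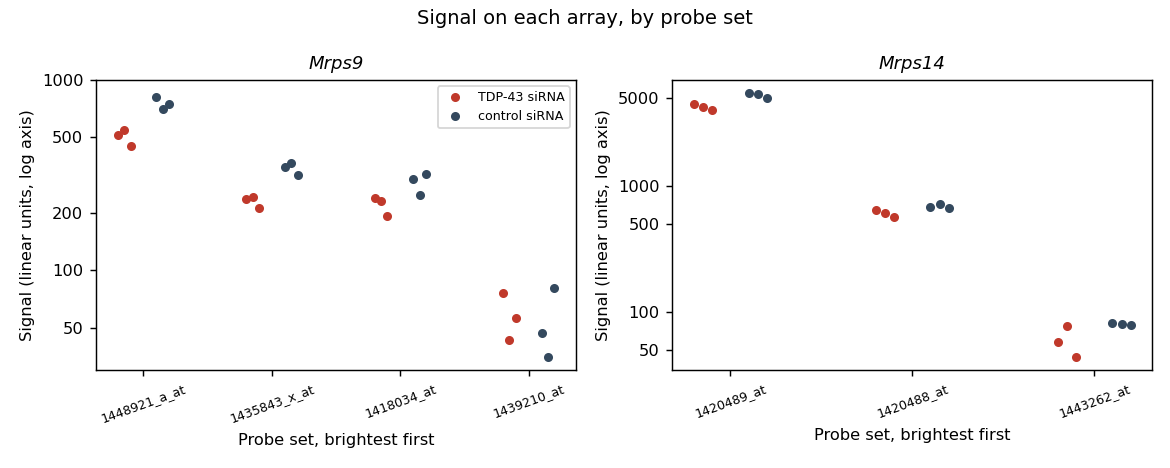
Signal on each array (y axis, linear units on a log axis) for the probe sets of Mrps9 and Mrps14 (x axis, brightest first), with 3 TDP-43 siRNA arrays in red left of 3 control siRNA arrays in dark blue. The red points lie below the blue ones on all probe sets except 1439210_at of Mrps9, whose signals lie between 35.1 and 80.8.

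The other separated small subunit genes changed less. Mrps7, the counterpart of bacterial S7, which organises the head, read 1375, 1429 and 1552 after TDP-43 siRNA against 1629, 1618 and 1580 after control siRNA. Its difference was -0.15 (SE 0.07, limma adjusted p = 0.418), and the nearest arrays of the groups were close together. Mrps33, a mitochondrial protein of the small subunit head without a bacterial counterpart, read 4326, 4286 and 4222 against 4615, 4414 and 4521, a difference of -0.078 (SE 0.05, limma adjusted p = 0.582). After these values were seen, the other measured head proteins were looked up: Mrps24 was at -0.059, Mrps35 at -0.053, Mrps31 at -0.047, Mrps10 at 0.0097 and Dap3 at 0.10, while Ptcd3 was at -0.24 with separated groups. None of them passed.

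In the large subunit, Mrpl21 had the clearest separation. Mrpl21, the counterpart of bacterial L21, which binds ribosomal RNA, read 903, 977 and 929 on the TDP-43 siRNA arrays, against 1196, 1149 and 1107 on the control siRNA arrays. The difference was -0.29 (SE 0.07, 95% confidence interval -0.46 to -0.13), which did not pass (limma adjusted p = 0.119). Its second probe set, 1437795_at, read 119, 98.3 and 142 against 105, 128 and 107, a difference of 0.061 with overlapping groups. Mrpl27, the counterpart of bacterial L27 near the site where peptide bonds form, read 2364, 2547 and 2637 against 2998, 2881 and 2789. Its difference was -0.20 (SE 0.07, limma adjusted p = 0.229), and its second probe set, with overlapping groups, was at -0.36.

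Mrpl12, the stalk protein that in bacteria recruits translation factors, read 1935, 1918 and 1944 after TDP-43 siRNA against 2243, 2112 and 2019 after control siRNA. The TDP-43 siRNA arrays were nearly level, and the difference was -0.13 (SE 0.06, limma adjusted p = 0.420). Mrpl32, which is cleaved by a protease of the inner mitochondrial membrane before it joins the ribosome, read 2249, 2295 and 2188 against 2512, 2416 and 2444. Its groups lay close together without overlap, at a difference of -0.13 (SE 0.06, limma adjusted p = 0.399).

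**Figure D3:**
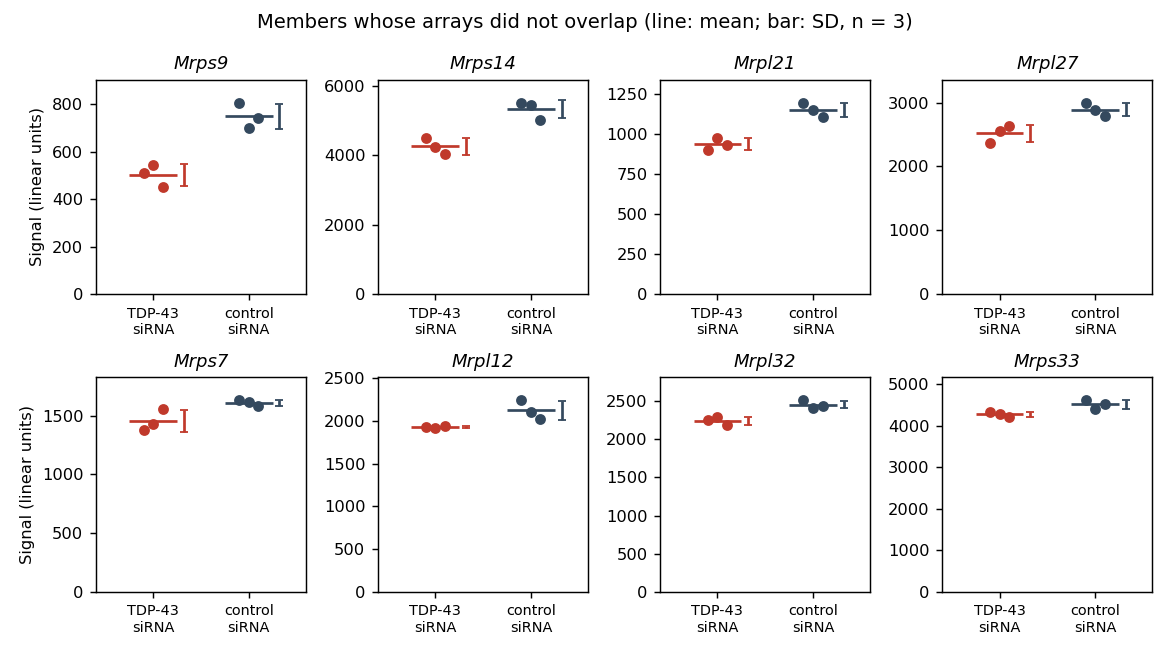
Signal on each array (y axis, linear units from 0) for the 8 members whose groups did not overlap, with TDP-43 siRNA arrays in red left of control siRNA arrays in dark blue; lines are means and bars SD (n = 3 each). Mrps9 at 502 against 750 shows the widest gap in proportion. The groups of Mrps7 (1452 against 1609) and of Mrps33 (4278 against 4517) nearly touch.

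In a few members 1 array set the difference or the overlap. Mrpl33, Mrpl49 and Mrpl1 are named because of the values they showed. Mrpl33, the counterpart of bacterial L33, had the lowest point estimate of the large subunit at -0.38 (SE 0.19, limma adjusted p = 0.441). It read 1484, 1271 and 1470 on the TDP-43 siRNA arrays, against 1467, 2649 and 1569 on the control siRNA arrays. Control siRNA replicate 2 stood alone, and without it the difference was -0.11. Mrpl49, a protein found only in mitochondrial ribosomes, read 915, 945 and 1160 against 1279, 1327 and 1084, and its groups overlapped through replicate 3 of each (difference -0.29, limma adjusted p = 0.309). Mrpl1, the counterpart of bacterial L1, read 796, 727 and 796 against 981, 953 and 768, where control siRNA replicate 3 lay among the TDP-43 siRNA arrays (difference -0.21, limma adjusted p = 0.432). Without control siRNA replicate 3, Mrpl1 was at -0.32 and did not pass (limma adjusted p = 0.0945). A second probe set of Mrpl1, 1423351_at, read 720, 723 and 689 against 841, 931 and 779, a difference of -0.25 with groups that did not overlap.

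No member rose. The highest point estimates, also picked out after they were seen, were Mrps2 at 0.14 (SE 0.08, limma adjusted p = 0.534), Mrpl37 at 0.13 (SE 0.11, limma adjusted p = 0.670) and Mrpl19 at 0.12 (SE 0.08, limma adjusted p = 0.582). Mrps2, the counterpart of bacterial S2, read 1736, 1649 and 1780 after TDP-43 siRNA against 1709, 1398 and 1593 after control siRNA, and the groups overlapped.

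The large and small subunits were then set side by side. The median difference was -0.016 for the 47 large subunit genes and -0.047 for the 29 small subunit genes, which left the large subunit 0.031 above the small one. Of the large subunit genes 28 lay below 0, and of the small subunit genes 22, where 45.02% of all genes tested lay below 0. These counts moved with the settings. With the mean of probe sets they were 23 and 19. Without control siRNA replicate 1 they were 24 and 17, and without control siRNA replicate 3 they were 33 and 23. The median size of a difference, without its sign, was 0.042 in the large and 0.053 in the small subunit, against 0.104 over all genes tested. Separated arrays, all lower after TDP-43 siRNA, were found in 4 genes of each subunit, 8.51% of the large and 13.8% of the small. Over all genes tested the share that was separated and lower was 8.32%. With all probe sets of each gene averaged in place of the brightest, the median of the large subunit turned to 0.0048 and that of the small subunit was -0.033.

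Array by array, the mean over each subunit was computed relative to each gene's own mean over the 6 arrays. The large subunit was at -0.022, -0.043 and 0.0070 on the TDP-43 siRNA arrays, against 0.061, 0.029 and -0.032 on the control siRNA arrays, and the groups overlapped. The small subunit was at -0.036, -0.026 and -0.031, against 0.095, 0.0066 and -0.0081, so that all 3 TDP-43 siRNA arrays lay below all 3 control siRNA arrays. By the median over the same genes it was at -0.028, -0.034 and -0.012, against 0.084, 0.0057 and -0.0091, so the groups nearly met. The means include Mrps9 and Mrps14, given above for their separated arrays, and the mean without them was not computed. Control siRNA replicate 1 stood apart from the other 5. All genes tested gave 0.029, -0.0091 and 0.010, against -0.036, 0.0073 and -0.0019, with control siRNA replicate 1 the lowest. Without control siRNA replicate 1, the median difference was -0.0020 for the large and -0.017 for the small subunit. No p was computed for a mean over chosen genes.

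**Figure D4:**
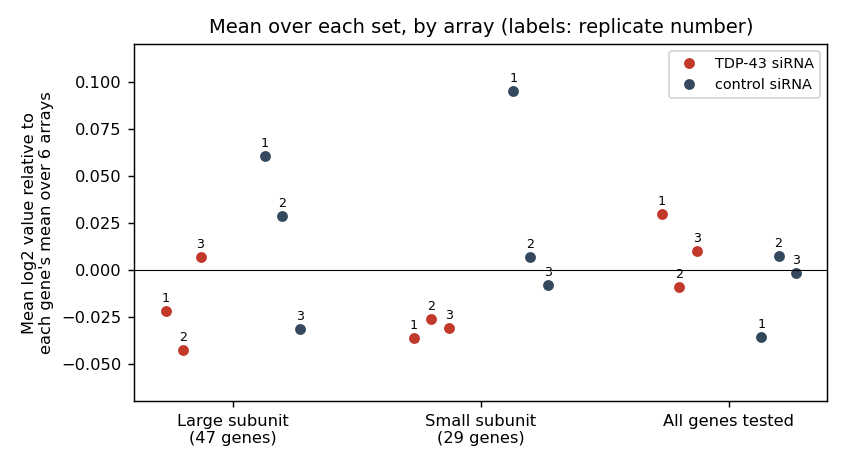
Mean log2 value on each array relative to each gene's own mean over the 6 arrays (y axis) for the large subunit, the small subunit and all genes tested (x axis), with TDP-43 siRNA arrays in red left of control siRNA arrays in dark blue and replicate numbers above the points. Control siRNA replicate 1 has the highest mean in both subunits (0.061 and 0.095) and the lowest over all genes (-0.036).

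Symbol and place in the ribosome differ for a few members. Mrps30 and Mrps18a carry small subunit symbols but sit in the large subunit of the mammalian mitochondrial ribosome, and Mrps36 is now placed in the oxoglutarate dehydrogenase complex. Mrps30 read 1086, 1099 and 1043 on the TDP-43 siRNA arrays, against 1062, 1016 and 1062 on the control siRNA arrays (difference 0.039, SE 0.07), and its groups overlapped. Counted by position, 49 large subunit genes had a median of -0.013 and 26 small subunit genes one of -0.048. Of the 26, 22 lay below 0.

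Mrps18a, Mrps18b and Mrps18c descend from 1 bacterial protein, S18, and the first of them is the large subunit member just named. Mrps18a read 1773, 1746 and 1719 after TDP-43 siRNA against 1745, 1715 and 1705 after control siRNA, a difference of 0.020 (SE 0.06). Mrps18b was at -0.067 (SE 0.07) and Mrps18c at -0.085 (SE 0.07). The 95% confidence intervals ran from -0.12 to 0.16, from -0.23 to 0.10 and from -0.24 to 0.071, so none reached down to the interval of Mrps9, and none passed.

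By origin, the 47 members with a bacterial counterpart had a median difference of -0.042, and 7 of them (14.9%) had separated arrays, all lower after TDP-43 siRNA. The 28 members found only in mitochondria had a median of -0.025, and 1 of them (3.57%), Mrps33, had separated arrays, also lower, where the share over all genes tested was 8.32%. The difference between these classes was not tested.

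Signals are not comparable between probe sets, so they are given as ranges. The mean signal of a member's brightest probe set over the 6 arrays lay between 634 and 4926 in the large subunit and between 306 and 4792 in the small subunit. All 76 members passed the filter on low values. In the large subunit the brightest probe sets were those of Mrpl51 at 4870 in TDP-43 siRNA and 4982 in control siRNA arrays (difference -0.032), Mrpl57 at 4498 and 4638 (-0.044) and Mrpl42 at 4125 and 4023 (0.038), all 3 proteins found only in mitochondria. In the small subunit, Mrps14 and Mrps33 were followed by Mrps12, the counterpart of a bacterial protein of the decoding site, at 3609 and 3757 (-0.056). The dimmest were Mrpl38 at 633 and 635 (-0.016) and Mrps27, a protein with RNA-binding repeats, at 288 and 325 (-0.16, SE 0.13, limma adjusted p = 0.674).

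The array carried 156 probe sets for the 76 members, and 34 members had a single one. Of the 80 other probe sets 67 passed the filter, and 52 of these differed by less than 0.2 from the brightest probe set of the same gene. Larger gaps than 0.5 were found for 2, 1439210_at of Mrps9 given above and 1439988_at of Mrpl15. This dim probe set of Mrpl15 read 9.0, 47.8 and 98.7 after TDP-43 siRNA against 78.1, 66.8 and 58.0 after control siRNA, a difference of -0.61 (SE 0.49) with overlapping groups, whereas the brightest of Mrpl15 was at 0.0052. Of the 67, 0 passed over all probe sets. Mrpl30 and Mrpl53 had probe sets that name 2 genes each, and were not analysed here.

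Promoter sequence was read from RefSeq (mouse, GRCm38.p6), from 250 bases before to 50 after each start site, and 67 of the 76 members had an entry. Nuclear respiratory factor 1, the ETS factor GABP and YY1 are known regulators of nuclear genes for mitochondria, and their motifs were searched on both strands. The NRF1 motif was GCGCA and GCGC with any 1 base between them, the ETS motif was CCGGAAGT, and the YY1 motif was the run of capitals in the Mrps18a promoter given with the sequences. The NRF1 motif was found in 12 member promoters (17.9%), against 11.3% of the 10230 genes tested that had an entry and 5.19% of all 27025 genes in the table. The ETS motif was found in 12 (17.9%), against 8.79% and 4.31%, and the YY1 motif in 5 (7.46%), against 1.71% and 0.755%. A match describes letters, not binding.

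Promoters are shown for the member that fell and the one next to it, and for a member with each of the other motifs; capitals mark motif matches. Mrps9 (chr1:42850983-42851282 on the plus strand) had an NRF1 match across its start site, Mrps14 (chr1:160194965-160195264 on the plus strand) had none of the 3, Mrpl27 (chr11:94653541-94653840 on the plus strand) an ETS match and Mrps18a (chr17:46110754-46111053 on the plus strand) a YY1 match just after the start site.
Mrps9: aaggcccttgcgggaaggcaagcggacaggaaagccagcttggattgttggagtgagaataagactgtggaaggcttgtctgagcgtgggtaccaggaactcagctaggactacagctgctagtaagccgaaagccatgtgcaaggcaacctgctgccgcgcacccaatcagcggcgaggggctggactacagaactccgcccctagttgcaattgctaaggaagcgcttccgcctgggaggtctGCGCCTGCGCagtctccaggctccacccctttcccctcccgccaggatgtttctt
Mrps14: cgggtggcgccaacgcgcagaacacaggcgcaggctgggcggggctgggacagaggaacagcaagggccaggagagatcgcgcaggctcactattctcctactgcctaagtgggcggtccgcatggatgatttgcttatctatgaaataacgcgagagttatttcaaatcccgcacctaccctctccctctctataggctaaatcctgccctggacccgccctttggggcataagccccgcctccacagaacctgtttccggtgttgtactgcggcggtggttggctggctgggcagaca
Mrpl27: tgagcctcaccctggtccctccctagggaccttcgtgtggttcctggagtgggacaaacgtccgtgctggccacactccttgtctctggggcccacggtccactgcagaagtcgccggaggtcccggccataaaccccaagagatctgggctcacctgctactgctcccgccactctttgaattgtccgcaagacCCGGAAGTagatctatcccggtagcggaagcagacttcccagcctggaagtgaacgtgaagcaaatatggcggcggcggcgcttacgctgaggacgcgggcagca
Mrps18a: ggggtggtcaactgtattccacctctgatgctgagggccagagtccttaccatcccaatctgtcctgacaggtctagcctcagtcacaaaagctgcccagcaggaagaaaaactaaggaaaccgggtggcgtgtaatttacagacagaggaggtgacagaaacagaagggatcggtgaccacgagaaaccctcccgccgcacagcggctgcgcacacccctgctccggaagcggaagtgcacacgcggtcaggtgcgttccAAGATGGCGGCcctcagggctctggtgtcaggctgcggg
Of the 8 members with separated arrays, 3 had the NRF1 motif (Mrps9, Mrpl12 and Mrpl32), 1 the ETS motif (Mrpl27) and 0 the YY1 motif. Over the 67 members with an entry the shares were 17.9%, 17.9% and 7.46%. The 8 were picked by their signals, and a link between motif and difference was not tested.

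The factors that bind such motifs were measured on the same arrays. Of 10 nuclear regulators 1 rose, 0 fell and 9 did not pass, with a median of 0.054. Over all genes tested 0.166% were called higher and 0.578% lower. Gabpb1, the subunit that gives GABP its activating domain, read 890, 769 and 736 on the TDP-43 siRNA arrays, against 458, 535 and 511 on the control siRNA arrays. All TDP-43 siRNA arrays were higher (difference 0.66, SE 0.10, limma adjusted p = 0.0176). Its second probe set, 1436232_a_at, was at -0.087 with overlapping groups, and with the mean of both the call was lost (limma adjusted p = 0.180). Gabpb1 passed under 10 of 16 alternative settings, and was lost without TDP-43 siRNA replicate 1 (0.0807) or 2 (0.0674) or control siRNA replicate 1 (0.0939). Gabpa, the DNA-binding subunit, was at -0.076, Nrf1 at -0.095 with separated groups (283, 280 and 287 against 300.0, 302 and 309) and Yy1 at -0.055, and none of the 3 passed. Other probe sets of Nrf1 were at -0.14, -0.098 and 0.0057, and the second of Gabpa was at 0.20, all with overlapping groups. The coactivator Ppargc1b was at 0.40 (limma adjusted p = 0.329) and Myc at 0.32 (limma adjusted p = 0.416), both with separated groups.

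Other genes of mitochondrial translation were followed through lists of known function. Of 4 measured ribosomal proteins with other symbols 0 passed. Ptcd3, a small subunit protein with RNA-binding repeats, read 1006, 967 and 1023 on the TDP-43 siRNA arrays, against 1211, 1189 and 1147 on the control siRNA arrays. Its groups were apart (difference -0.24, SE 0.07, limma adjusted p = 0.176), and its dim second probe set was at 0.39. Dap3, a GTP-binding protein of the small subunit, was at 0.10 and Gadd45gip1 of the large subunit at -0.069.

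A list for charging of mitochondrial transfer RNAs held 16 measured aminoacyl-tRNA synthetases, which load amino acids, and 3 subunits of the amidotransferase that completes the glutamine transfer RNA (Qrsl1, Gatb and Gatc). Of these 19 genes 1 fell, 0 rose and 18 did not pass, with a median of -0.042 and a median size of 0.171 without sign. Among all genes tested 0.578% were called lower and 0.166% higher. The list was dimmer and less precise than the ribosomal protein genes, with a median signal of 447 against 1704 and a median standard error of 0.114 against 0.075, and the difference between the lists was not tested. Lars2, the leucine enzyme, read 389, 352 and 375 on the TDP-43 siRNA arrays, against 683, 605 and 546 on the control siRNA arrays. Its groups were far apart (difference -0.69, SE 0.10, limma adjusted p = 0.0141), and its second probe set, 1439225_at, was at -0.25 with overlapping groups. The call of Lars2 was lost with the mean of its probe sets (limma adjusted p = 0.143), without the intensity trend (0.0785) and in 5 of 6 fits on 5 arrays.

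Hars2, the histidine enzyme, read 352, 371 and 428 after TDP-43 siRNA against 512, 566 and 611 after control siRNA. All TDP-43 siRNA arrays were lower, but the difference of -0.54 (SE 0.11) did not pass (limma adjusted p = 0.0588); its second probe set was at -0.36. Iars2, the isoleucine enzyme, was at -0.30 (SE 0.10, limma adjusted p = 0.233) on its brightest probe set and at 0.84 on a dim one. The dim probe set read 156, 85.2 and 104 after TDP-43 siRNA against 33.0, 83.3 and 65.4 after control siRNA. Its groups were thus separated and higher, while those of the brightest were separated and lower. The sign for Iars2 changed under 1 of 16 alternative settings. Other synthetases had positive differences on their brightest probe sets without passing. Vars2, the valine enzyme, read 199.97, 190.2 and 201 on the TDP-43 siRNA arrays, against 170.3, 134 and 141 on the control siRNA arrays, and its groups did not overlap (difference 0.39, SE 0.13, limma adjusted p = 0.257). On the second probe set of Vars2, 1434349_at, the difference was -0.14 with overlapping groups. Cars2 was at 0.25 and Nars2 at 0.21, both with overlapping groups. Other probe sets of Cars2 were at -0.057 and 0.074, and that of Nars2 was below the filter.

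The remaining lists held 0 calls. Of 26 factors for assembly and ribosomal RNA 0 passed, with a median of 0.022; Mettl15, a methyltransferase for small subunit RNA, was at -0.38 (limma adjusted p = 0.130), the GTPase Noa1 at 0.15 and Rcc1l at -0.21. Of 12 translation factors 0 passed, with a median of -0.0086; the elongation factor Tufm was at -0.17, the deformylase Pdf at -0.15 and the initiation factor Mtif2 at -0.084. Of 18 factors for mitochondrial DNA and RNA 0 passed, with a median of 0.029; the transcription factor Tfb2m was at 0.18, the elongation factor Tefm at -0.18 and Mterf2 at 0.19.

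**Figure D5:**
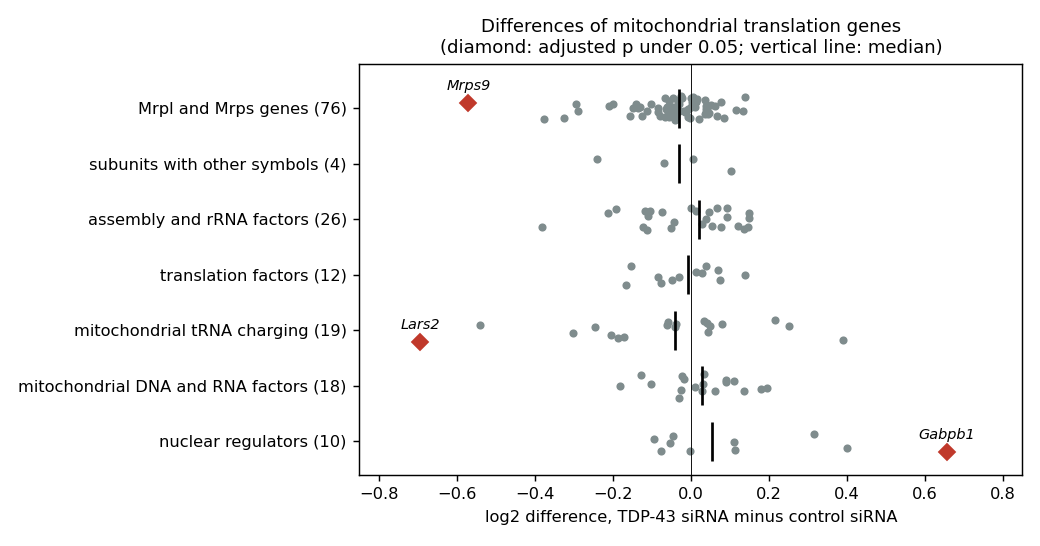
Log2 difference (TDP-43 siRNA minus control siRNA, x axis) of each gene in the 76 Mrpl and Mrps genes and in 6 related lists (y axis, number measured in brackets; tRNA charging is the list of 16 synthetases with Qrsl1, Gatb and Gatc); red diamonds passed the test and vertical lines are medians. Mrps9 at -0.57, Lars2 at -0.69 and Gabpb1 at 0.66 are the calls.

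The most alike gene families on these arrays were the cytosolic ribosomal proteins and the nuclear subunits of the respiratory chain. Of 81 cytosolic ribosomal protein genes listed 43 were measured and 0 passed, with a median difference of 0.0092 and a median size of 0.030. Of 73 respiratory chain genes 0 passed, with a median of -0.028 and a median size of 0.036. The share of genes below 0 was 65.8% over the mitochondrial ribosomal protein genes and 45.02% over all genes tested. It was 37.2% over the cytosolic ribosomal protein genes and 76.7% over the respiratory chain genes. Both families were brighter than the mitochondrial ribosomal protein genes, with median signals of 13166 and 7336 against 1704. Their median standard errors were 0.053 and 0.054 against 0.075, and whether brightness had a part in the smaller sizes was not tested. Separated arrays were found in 0 cytosolic ribosomal protein genes and in 6 respiratory chain genes (8.22%), all lower after TDP-43 siRNA. Of the 76 mitochondrial ribosomal protein genes 8 were separated and lower (10.5%) and 0 higher. Over all genes tested the shares were 8.32% lower and 9.98% higher. Differences between these families were not tested.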

How the data were processed

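Labelled RNA of MIN6 cells was hybridised to Affymetrix mouse arrays, per the labels. The deposited table holds 1 signal intensity per probe set on a linear scale, which the authors made with MAS5 (per the submitters' processing notes, which name no version). It has 45101 probe sets and 6 arrays, and the lowest signal was 1. Arrays correlated between 0.985 and 0.991 across genes. The number of arrays limits the precision.

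Of the probe sets, 34945 had 1 gene in the platform annotation, 932 several and 9160 none, beside 64 control probe sets. Symbols were updated through Entrez numbers with RefSeq GRCm38.p6 (34741 matched). The dimmest 40% of non-control probe sets, by mean over the 6 arrays, were left out, and each gene was represented by its brightest single-gene probe set, which left 12619 genes. The value 12 was added before log2, so differences of dim genes are understated. The comparison used limma 3.58.1 under R 4.3.3 (intensity trend, two-sided, Benjamini-Hochberg over all genes, threshold 0.05). The fit was first tested on simulated data for the same 12619 genes. Of 100 changes of size 0.5 on the log2 scale 43% were recovered, and of 100 of size 1, 81%. Among the unchanged genes 5 were called. Figures were drawn with matplotlib 3.10.9.

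The members and lists were chosen with earlier results of these data known. Named members were those past the threshold, up to 6 per subunit and direction with separated groups, the 3 brightest and the dimmest of each subunit, the Mrps18 paralogs, Mrps30 and members with discordant probe sets. From each list the 3 genes with the smallest p were named, and other list genes for their role, with values known. Alternatives were other pseudocounts, filters, scalings and variance models, the mean of probe sets, a replicate block and each array left out.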

Additional observations from a re-analysis of the deposited data

How the results depend on the processing

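The count of members that rose was 0 under every alternative run, and at an unadjusted p under 0.05 it was 0 with all arrays (limma). The count that fell was 2 with a 60% filter, with a robust variance and with the replicate number as a block (Mrps9 and Mrps14 each time), and 0 with the mean of probe sets, median centring, no filter and no intensity trend; leaving out 1 array gave 0 to 2. Over all genes the count of 94 went to 61 with the mean of probe sets, 51 with no filter and 12 with no intensity trend, and lay between 31 and 253 with 1 array left out, highest without control siRNA replicate 3. With the replicate block it was 123 genes, but in deviations from the group means only 1 of 3 TDP-43 siRNA arrays correlated best with the control siRNA array of its own number (same-number r of -0.123, -0.138 and 0.239), so the numbers were not taken as pairs. The median differences of both subunits, and the gap between them, moved by less than the spread between replicates (SD of 0.040 for the large subunit, 0.036 for the small and 0.023 for the gap) under each alternative run. That limit was wide, since the large subunit median of -0.016 was smaller in size than its spread. A change of its sign, as with the mean of probe sets, still lay within the limit, which therefore does not show stability. Among dim probe sets the precision was lower, as for Mrps27 with an SE of 0.13 against a median of 0.075 over the members.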
